A study of Homo sapiens with 6 samples.

Results

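The genes described are 10 members of the early response to growth factors and stress, namely the zinc finger factors EGR1, EGR2 and EGR3, the orphan nuclear receptors NR4A1, NR4A2 and NR4A3, the immediate early response genes IER2, IER3 and IER5, and SRF, which encodes serum response factor. They were chosen by name, with earlier results of these data known. Matched to the deposited table by Ensembl identifier, all 10 were found among its 63086 genes. The table holds estimated RNA-seq counts of A375 cells, an established human melanoma line. One group is a DUS1L knockout made with CRISPR/Cas9 and taken through clonal selection, with 3 libraries. The other is wild-type cells, carried alongside with no targeting, also with 3 libraries. The number of clones was not given in the sources used here, so the knockout and clone-to-clone variation cannot be told apart. The series describes its replicates as biological without saying how the cultures were separated, so p-values reflect only how much these libraries vary.

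Immediate early genes are transcribed within minutes of a signal because the proteins that switch them on are already present in the resting cell. SRF binds the CArG box, a short AT-rich element, together with ternary complex factors that ERK phosphorylates or with actin-regulated MRTF coactivators, and EGR and IER genes are among its classical targets. NR4A genes also answer to cAMP through CREB at cAMP response elements. In melanoma cells with an activated BRAF kinase, as in A375, the ERK pathway that feeds these genes is constitutively active.

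Libraries held between 17121315 and 18861514 estimated counts, and the lowest count of any of the 10 genes in any library was 41. DUS1L itself had 55.4, 54.7 and 53.1 CPM (counts scaled to TMM library size) in knockout replicates 1, 2 and 3, against 79.95, 75.7 and 77.0 CPM in the wild-type replicates. That is a log2 fold change of -0.51 (SE 0.06, adjusted p = 1.7e-06, edgeR quasi-likelihood test). On the second principal component, with 11.9% of the variance, wild-type replicate 1 lay at -22.4 and the other wild-type libraries at 9.30 and 13.1. Values without it are given below. Of the melanoma markers, SOX10, MIA, PRAME and S100B were present in both groups and lower in knockout (log2 fold changes -0.33, -0.28, -0.44 and -0.90), AXL and NGFR were higher (0.58 and 0.21), and MITF was not called. TYR had no count and MLANA, PMEL and DCT had at most 9 counts in any library. The 11 markers summed to between 1071 and 1127 CPM in knockout and between 1178 and 1211 CPM in wild-type libraries. The 8 leukocyte markers summed to between 2.09 and 2.48 CPM in knockout and between 1.06 and 1.95 CPM in wild-type libraries, with CD3E, CD2 and MS4A1 at 0 throughout. The 5 endothelial markers summed to at most 3.99 CPM in knockout and 3.84 CPM in wild-type libraries, and the 6 keratinocyte markers ranged from 50.1 to 59.3 CPM in knockout and from 53.2 to 58.9 CPM in wild-type libraries, nearly all of it KRT10, with KRT5 and KRT1 at 0. The 7 fibroblast markers, mainly collagens, varied more, from 84.7 to 184 CPM in knockout and from 41.2 to 107 CPM in wild-type libraries. Their part in the results below was not tested.

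Upstream stretches of 4 of the genes are shown because they hold the elements through which early genes are known to respond. They come from the RefSeq promoter table (GRCh38.p14), in which 7 of the 10 genes have 11 windows in all, each of 250 bases before and 50 after an annotated start. EGR3, NR4A2 and IER3 are not among them. Each sequence below runs 5′ to 3′ on the gene's strand up to the RefSeq start, or up to the first base that GENCODE places in an exon. In EGR1 (chr5:138465229-138465478, plus strand), EGR2 (chr10:62816374-62816616, minus strand) and SRF (chr6:43171019-43171268, plus strand) the capitals mark CArG boxes. In NR4A3 (chr9:99821635-99821854, plus strand) they mark TGACG, the core of the cAMP response element, or its reverse complement.
EGR1: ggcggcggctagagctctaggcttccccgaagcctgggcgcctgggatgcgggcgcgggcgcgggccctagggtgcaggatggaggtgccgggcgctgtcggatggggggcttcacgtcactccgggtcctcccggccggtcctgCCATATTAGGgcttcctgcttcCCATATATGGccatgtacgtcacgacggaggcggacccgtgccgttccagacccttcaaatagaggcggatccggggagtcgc
EGR2: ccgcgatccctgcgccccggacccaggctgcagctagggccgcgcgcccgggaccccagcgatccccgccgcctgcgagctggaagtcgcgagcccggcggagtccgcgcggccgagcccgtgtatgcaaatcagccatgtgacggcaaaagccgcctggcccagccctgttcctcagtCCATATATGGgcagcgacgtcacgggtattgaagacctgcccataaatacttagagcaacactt
SRF: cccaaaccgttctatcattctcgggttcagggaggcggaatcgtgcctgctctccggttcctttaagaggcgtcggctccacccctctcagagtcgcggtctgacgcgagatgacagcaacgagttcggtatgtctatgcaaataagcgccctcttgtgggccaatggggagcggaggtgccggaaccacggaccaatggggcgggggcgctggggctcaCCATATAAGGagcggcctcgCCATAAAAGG
NR4A3: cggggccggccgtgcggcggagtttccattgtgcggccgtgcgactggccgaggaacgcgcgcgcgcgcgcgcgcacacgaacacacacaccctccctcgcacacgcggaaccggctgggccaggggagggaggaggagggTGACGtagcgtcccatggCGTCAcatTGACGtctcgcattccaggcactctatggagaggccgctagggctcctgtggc

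CArG boxes were found, on either strand, in 3 of the 11 windows, 1 each of EGR1, EGR2 and SRF, whereas 1.29% of all 35116 promoter windows hold one. EGR2 has 3 windows, and the box is in 1 of them. EGR1 and SRF had 2 each and EGR2 had 1. The element lies at -105 to -96 and -83 to -74 in EGR1, at -71 to -62 in EGR2, and at -30 to -21 and -10 to -1 in SRF, counted from the annotated start. TGACG was found in 5 of the 11 windows (of EGR1, EGR2, IER2, NR4A3 and SRF), against 24.55% of all windows. NR4A3 had 4 matches before its start, 3 of them in the stretch shown. None of the 11 windows had the full 8-base palindrome of the cAMP response element, which 1.85% of all windows hold. The EGR site GCGNGGGCG occurred in 3 of the 11 windows, of EGR1, EGR2 and SRF (9.43% of all windows). The GC box GGGCGG occurred in 6 of the 11 windows, a share near the 44.95% of all windows, and in SRF it overlaps the EGR site. TATAAA, the TATA box, occurred, on the reverse strand after the start, in 1 of the 11 windows, that of SRF (11.53% of all windows). A match shows that the letters are there and does not show that a factor binds.

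All 10 genes rose in the DUS1L knockout, by between 1.31-fold and 3.25-fold, each with an adjusted p under 0.05 in edgeR's quasi-likelihood test. Of the 16046 genes tested, 20.5% were called higher and 20.7% lower, 41.2% in all. That balance depends on the scaling, since library size alone gave 3880 higher and 2732 lower genes, against 3288 and 3320 with TMM. The 10 genes had a median log2 fold change of 0.70, against -0.0042 over all genes tested. In 9 of the 10 every knockout library lay above every wild-type library, NR4A2 being the exception, and 25.4% of tested genes were separated in that way. A further 25.8% had every knockout library below, so that 51.1% did not overlap in either direction. Against a fold change of 1.5, tested with glmTreat on the same fit, EGR1, EGR2, NR4A3 and IER5 passed, and 2.31% of all tested genes passed as higher and 1.27% as lower. Left without wild-type replicate 1, 9 of the 10 were called higher and 5 passed the 1.5-fold test. Without wild-type replicate 3 the count of higher genes was 7.

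**Figure D1:**
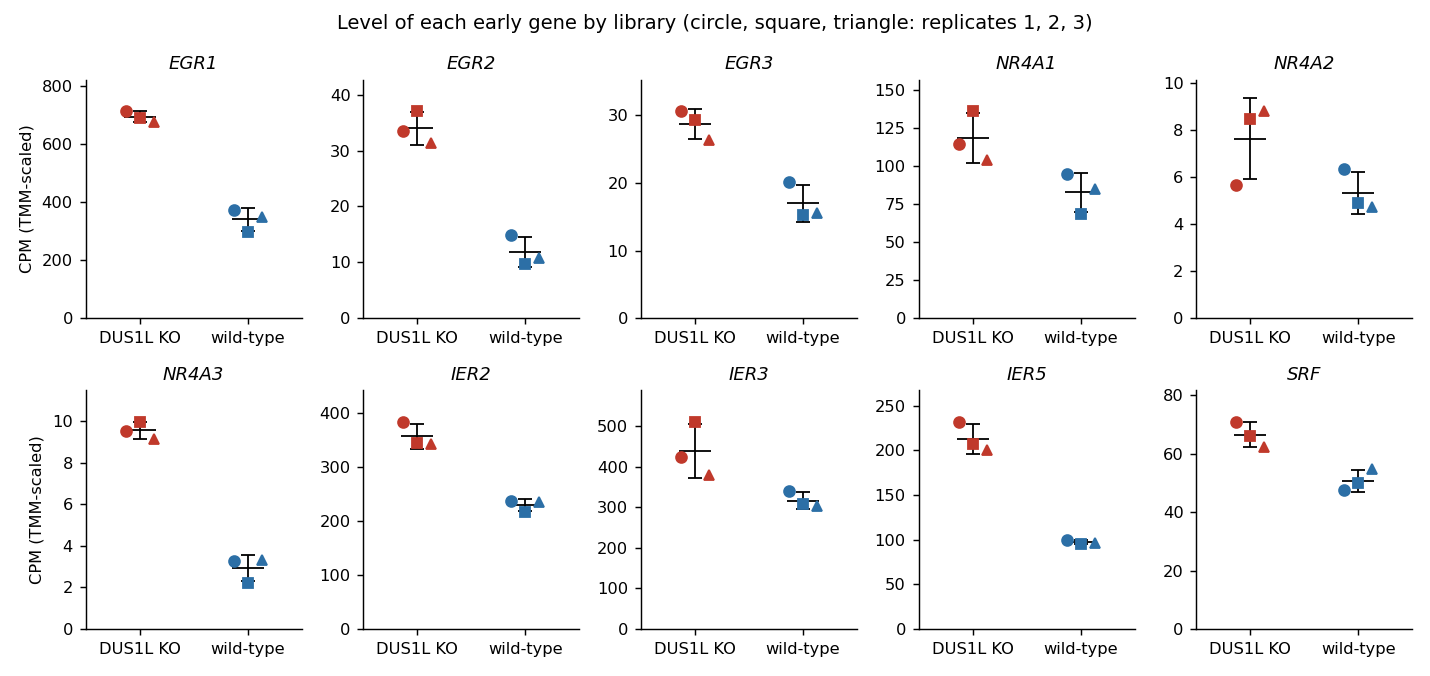
CPM (counts scaled to TMM library size, vertical axis from 0) of each of the 10 genes in the 3 DUS1L knockout libraries (left, red) and the 3 wild-type libraries (right, blue). Points are libraries, bars are mean and SD, and only in the NR4A2 panel do the groups overlap, knockout replicate 1 at 5.63 CPM lying below wild-type replicate 1 at 6.35 CPM.

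The EGR genes encode zinc finger transcription factors that bind GC-rich sites and pass early signals on to later genes. EGR1, the most studied of them, had 716, 690.3 and 678 CPM in knockout replicates 1, 2 and 3, against 373, 299 and 350.4 CPM in the wild-type replicates. The lowest knockout library lay well above the highest wild-type library. Means were 695 ± 19.1 and 341 ± 38.3 CPM (SD, n = 3 each), a log2 fold change of 1.03 (SE 0.07, adjusted p = 6.3e-09, edgeR). EGR1 (ENSG00000120738.8) is a gene of 2 exons on the plus strand of chromosome 5, from 138465479 to 138469303 (GRCh38).

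EGR2, a factor best known from hindbrain patterning and Schwann cell myelination, had 33.4, 37.1 and 31.3 CPM in knockout replicates, against 14.9, 9.70 and 10.8 CPM in wild-type replicates. Its groups were apart by more than the spread within either. The log2 fold change was 1.53 (SE 0.13, adjusted p = 9.95e-08, edgeR), and it ranged from 1.40 to 1.73 when single libraries were left out, the highest value being the one without wild-type replicate 1. EGR2 (ENSG00000122877.18) occupies chromosome 10 from 62811996 to 62819167 (minus strand) and has 2 exons in its canonical transcript.

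EGR3, which in T cells overlaps EGR2 in function, had 30.7, 29.3 and 26.3 CPM in knockout replicates, against 20.2, 15.2 and 15.6 CPM in wild-type replicates. Wild-type replicate 1 was the highest of its group and came closest to the knockout libraries. The log2 fold change was 0.76 (SE 0.11, adjusted p = 1.41e-05, edgeR), and the gene did not pass the 1.5-fold test (adjusted p = 0.279, glmTreat). With single libraries left out its log2 fold change ranged from 0.68 to 0.90, the highest value being the one without wild-type replicate 1. EGR3 (ENSG00000179388.9) has 2 exons on chromosome 8, from 22687659 to 22693480 (minus strand).

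The NR4A receptors lack a classical ligand pocket, so their activity follows their own transcription closely. NR4A3, also called NOR1, had 9.56, 10.0 and 9.14 CPM in knockout replicates, against 3.29, 2.22 and 3.31 CPM in wild-type replicates. All knockout libraries sat close together, and the gene had the largest fold change of the 10 from the lowest wild-type level. Its log2 fold change was 1.70 (SE 0.18, adjusted p = 3.46e-07, edgeR), which 1.04% of tested genes exceeded. NR4A3 (ENSG00000119508.18) lies on the plus strand of chromosome 9 from 99821855 to 99866891, with 8 exons.

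NR4A1, or NUR77, which also moves to mitochondria in dying cells, had 115, 136 and 104 CPM in knockout replicates, against 94.7, 68.9 and 84.9 CPM in wild-type replicates. The groups were separate, but the gap between the nearest libraries was smaller than the SD within either group. Its log2 fold change was 0.52 (SE 0.15, adjusted p = 0.0374, edgeR), near the threshold. The call was lost without knockout replicate 1 (adjusted p = 0.0851) and without wild-type replicate 3 (adjusted p = 0.103), and also with a correction for transcript length and GC content (adjusted p = 0.092). NR4A1 (ENSG00000123358.20) lies on the plus strand of chromosome 12 from 52022832 to 52059507, with 7 exons, and its counts were fractional in 5 of 6 libraries.

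NR4A2, or NURR1, a factor needed for midbrain dopamine neurons, had 5.63, 8.44 and 8.80 CPM in knockout replicates, against 6.35, 4.88 and 4.71 CPM in wild-type replicates. This was the one gene whose groups overlapped. The log2 fold change of 0.52 (SE 0.19) passed the test at an adjusted p of 0.0346 (edgeR). It did not without knockout replicate 2 or 3 (adjusted p = 0.131 and 0.17), without wild-type replicate 2 or 3 (adjusted p = 0.121 for each), or with DESeq2 (adjusted p = 0.0532). NR4A2 (ENSG00000153234.16) has 8 exons on chromosome 2, from 156324437 to 156342348 (minus strand).

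The IER genes share a name for their speed of induction, and IER2 and IER5 also share a conserved N-terminal region. IER5, which recruits the phosphatase PP2A and by that route promotes activity of the heat shock factor HSF1, had 232, 207 and 200.4 CPM in knockout replicates, against 99.4, 95.2 and 95.8 CPM in wild-type replicates. Wild-type libraries agreed closely, and each knockout library was more than 2 times higher than any of them. Its log2 fold change of 1.14 (SE 0.06) had the smallest p of the 10 (adjusted p = 1.61e-11, edgeR). IER5 (ENSG00000162783.11) is a gene of 1 exon on the plus strand of chromosome 1, from 181088700 to 181092900. DNAJB1, a heat shock gene and cochaperone of HSP70 named with its value known, had 1110, 1023 and 986 CPM in knockout replicates, against 268, 257 and 312 CPM in wild-type replicates (log2 fold change 1.90, adjusted p = 9.99e-12, edgeR). Its part in the IER5 result was not tested.

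IER2, a nuclear regulator of early transcription, had 384, 344 and 343 CPM in knockout replicates, against 238, 216 and 234 CPM in wild-type replicates. Its groups were well apart. The log2 fold change was 0.64 (SE 0.06, adjusted p = 2.35e-08, edgeR), an estimate of 1.56-fold that did not pass the test against 1.5-fold (adjusted p = 0.655). IER2 (ENSG00000160888.7) lies on the plus strand of chromosome 19 from 13150411 to 13154911, with 2 exons.

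IER3, a regulator of cell death that NF-kB also induces, had 425, 512 and 379 CPM in knockout replicates, against 339.7, 307 and 304 CPM in wild-type replicates. The knockout libraries were spread widely and the wild-type libraries narrowly. Means were 439 ± 67.3 and 317 ± 19.8 CPM (SD, n = 3 each), and the log2 fold change was 0.47 (SE 0.11, adjusted p = 0.0128, edgeR). Leaving out any one wild-type library lost the call, with adjusted p of 0.0659, 0.0538 and 0.0585 without replicates 1, 2 and 3. IER3 (ENSG00000137331.12) spans 1350 bases with 2 exons on chromosome 6, from 30743199 to 30744548 (minus strand).

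Reads of IER2 and IER3 could in part belong to other annotated RNAs. Both had fractional counts, in 5 and 6 of 6 libraries, and both overlap long noncoding RNAs on the opposite strand, which share up to 30.7% of the exon bases of IER2 and 32.6% of those of IER3. Without the strand setting of the counting these reads cannot be told apart. The counts given to the overlapping RNAs were low. IER3-AS1 averaged 1.02 CPM in knockout and 0.849 CPM in wild-type libraries and was not called (adjusted p = 0.643, edgeR), and NR4A1AS averaged 0.360 and 0.289 CPM.

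SRF, the MADS box factor upstream of many early genes and itself a target of its own CArG boxes, had 71.0, 66.1 and 62.4 CPM in knockout replicates, against 47.4, 50.03 and 54.8 CPM in wild-type replicates. The groups did not overlap. At a log2 fold change of 0.39 (SE 0.07, adjusted p = 0.000205, edgeR) SRF had the smallest change of the 10. SRF (ENSG00000112658.8) lies on the plus strand of chromosome 6 from 43171269 to 43181506, with 7 exons.

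**Figure D2:**
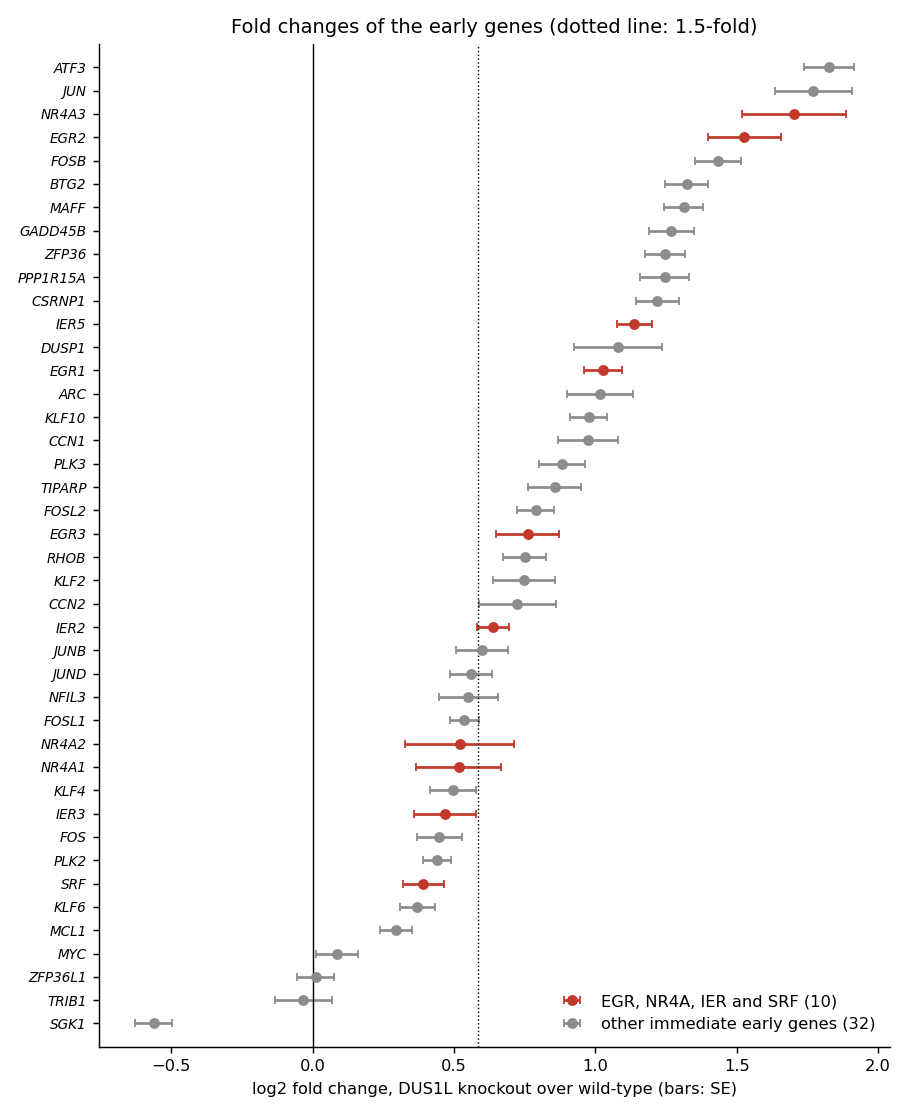
Log2 fold change of DUS1L knockout over wild-type (horizontal axis, bars SE) for the 10 genes (red) and 32 other immediate early genes (grey), sorted by value. NR4A3 and EGR2, at 1.70 and 1.53, stand near the top with ATF3 and JUN, and SRF at 0.39 is among the lower values right of 0.

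Levels per length, in TPM (abundance per base of merged exon length, scaled to the same sum in each library), differed between the genes by more than 200-fold. In knockout libraries the order from high to low was IER3, EGR1, IER2, IER5, NR4A1, SRF, EGR2, EGR3, NR4A2 and NR4A3. IER3 averaged 1235 ± 180.1 TPM in knockout and 840.3 ± 46.6 TPM in wild-type libraries, and EGR1 843 ± 24.3 and 389 ± 45.3 TPM (SD, n = 3 each). NR4A2 averaged 7.05 ± 1.60 TPM in knockout and 4.62 ± 0.747 TPM in wild-type libraries, and NR4A3 5.76 ± 0.219 and 1.67 ± 0.368 TPM. Neighbours whose library values overlapped were NR4A1 with SRF and NR4A2 with NR4A3 in knockout cells. In wild-type cells they were SRF with NR4A1 and EGR3 with EGR2. The 2 pairs that changed places between the groups, NR4A1 with SRF and EGR2 with EGR3, include 1 pair that overlapped in both groups, NR4A1 with SRF. With the longest transcript as length that pair kept its order, NR4A1 above SRF in both groups.

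**Figure D3:**
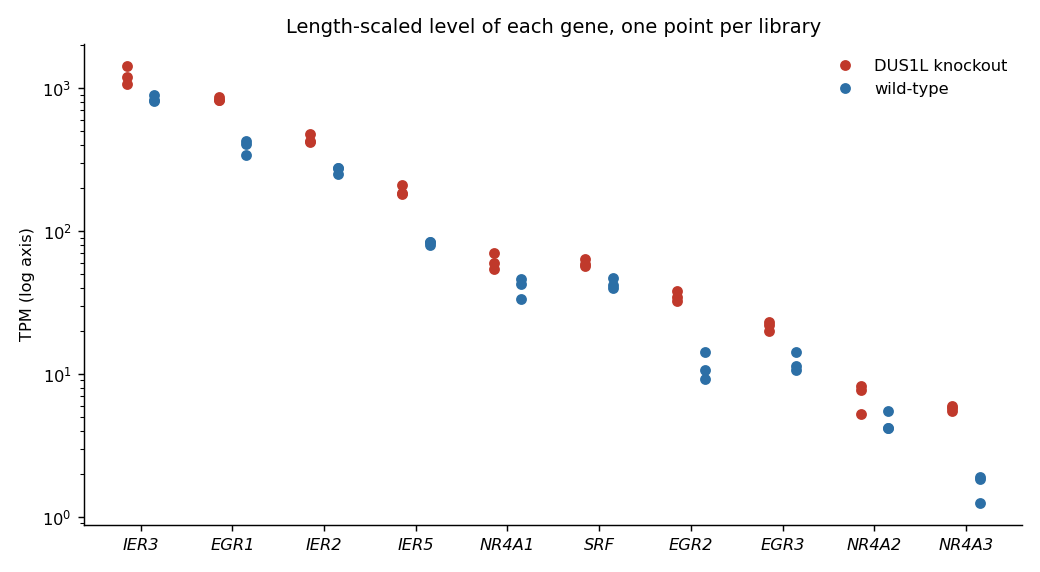
TPM per library on a log axis for the 10 genes, ordered by the knockout mean, with DUS1L knockout (red) left of wild-type (blue). EGR2 lies above EGR3 in all 3 knockout libraries, and the 2 genes overlap in wild-type libraries, at 11.4 and 12.1 TPM on average.

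Shares of each family's summed TPM were compared between the groups. Of the 3 EGR genes together, EGR1 made up 93.7% ± 0.390 of the TPM in knockout and 94.3% ± 0.604 in wild-type libraries (SD, n = 3 each), and EGR2 3.87% ± 0.320 and 2.74% ± 0.363. Within the NR4A family NR4A1 held 82.7% ± 2.46 in knockout and 86.6% ± 0.771 in wild-type libraries, and the NR4A3 share was 7.78% ± 0.601 and 3.54% ± 0.376. IER5 made up 10.4% ± 1.11 of the IER sum in knockout and 6.94% ± 0.199 in wild-type libraries.

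The log2 ratio of 2 genes in the same library does not depend on library scaling, and 9 such pairs were compared. In 7 of them the 3 knockout ratios lay apart from the 3 wild-type ratios. Each had an exact permutation p of 0.1 (two-sided, 0.1286 after adjustment over the 9 pairs). A p of 0.1 is the smallest that 3 against 3 libraries allow, so no pair could pass a threshold of 0.05. Pairs within a family share genes and are not independent. The share of other gene pairs that lie apart was not computed, while 51.1% of single tested genes did not overlap. The widest differences were those of NR4A2 over NR4A3 and NR4A1 over NR4A3, lower in knockout by -1.22 and -1.21 on the log2 scale. EGR2 over EGR3 averaged 0.24 ± 0.11 in knockout and -0.54 ± 0.11 in wild-type libraries. NR4A1 over NR4A2 averaged 3.98 ± 0.39 and 3.96 ± 0.18, with overlap between the groups (exact permutation p = 1), and IER2 over IER3 overlapped as well (exact permutation p = 0.4).

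**Figure D4:**
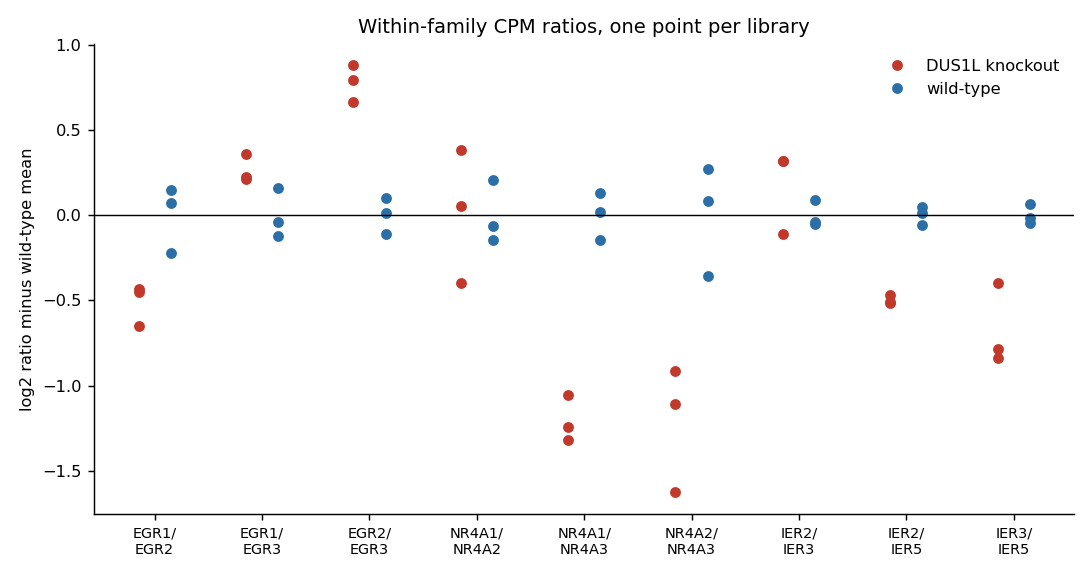
Log2 ratio of CPM for 9 within-family gene pairs, each shown as the difference from the wild-type mean (vertical axis), with one point per library and DUS1L knockout (red) left of wild-type (blue). NR4A1 over NR4A2 and IER2 over IER3 overlap, and the other 7 pairs do not.

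The position of each library within its group was compared across the genes. Among wild-type libraries, replicate 1 held the highest CPM for 8 of the 10 genes and replicate 2 the lowest for 7, against 35.9% and 30.5% of all tested genes. Among knockout libraries replicate 3 held the lowest CPM for 9 of the 10 genes, against 33.3% of all tested genes, NR4A2 being the exception. No one knockout library was highest throughout, replicate 1 being highest for 5 genes, replicate 2 for 4 and replicate 3 for 1. Mitochondrial transcripts took between 3.79% and 4.10% of counts in knockout and between 4.41% and 4.77% in wild-type libraries. Their part in these differences was not tested.

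Most of the genes are compact. The median span of the 10 is 6497 bases, against 33954 bases for the 13497 protein-coding genes tested. NR4A3 and NR4A1, which span 45037 and 36676 bases, exceed the median of the tested genes. Of the 10, 6 have 1 or 2 exons in the canonical transcript, against 7.1% of the protein-coding genes tested. Median transcript lengths were alike, at 3304.5 and 3395 bases, and the median GC content of the longest transcript was 55.2% against 47.9%.

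The nearest genes on each side were compared with all genes tested. Of the 20 nearest tested protein-coding genes, 1 on each side, 4 were called higher, 10 lower and 6 were not called, with a median log2 fold change of -0.33. Over all genes tested 20.5% were higher and 20.7% lower. The higher count is near that background, and the lower count, 10 of 20, is above it. The cause was not tested. STX10, whose annotated span comes within 28 bases of the annotated start of IER2, was lower, with a log2 fold change of -0.34 (adjusted p = 0.000454, edgeR). FLOT1, 0.5 kb from IER3, fell by 0.36 (log2, adjusted p = 0.000187, edgeR). BIN3 near EGR3 fell by 0.60, PTK7 near SRF by 0.36 and REEP2 near EGR1 by 0.48. The other genes called lower were RHOBTB2, GPD2, SEC61B, CACNA1A and DDR1. The 4 called higher were ETF1 near EGR1, NRBF2 at 314.1 kb from EGR2, ATG101 near NR4A1 and MR1 near IER5. Their log2 fold changes were 0.20, 0.45, 0.25 and 0.53. Distances reached 1870.5 kb, between NR4A2 and GALNT13, so some of the 20 genes lie far away.

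Other immediate early genes rose in 28 of 32 and 1 fell (87.5% higher, against 20.5% of all genes tested), with a median log2 fold change of 0.77, and 15 passed the 1.5-fold test. That count of 28 was the same in all 14 alternatives. The list was chosen with earlier results of these data known, so its share is a description and not independent support. MAFF, a small MAF factor, averaged 140.7 ± 10.6 CPM in knockout and 56.7 ± 3.66 CPM in wild-type libraries (SD, n = 3 each), and ZFP36, which marks AU-rich mRNAs for decay, 126 ± 12.2 and 53.3 ± 1.91 CPM. FOSB, an AP-1 subunit, and BTG2, an antiproliferative factor, rose by 1.43 and 1.32 on the log2 scale. Chosen after their values were seen, the exceptions are SGK1, a kinase induced by serum and glucocorticoids, which fell by 0.56 (adjusted p = 9.85e-07, edgeR), and MYC, ZFP36L1 and TRIB1, which were not called (log2 fold changes 0.09, 0.01 and -0.03).

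Among relatives and partners, 4 of 12 tested genes were higher and 3 lower (20.5% and 20.7% of all genes tested), and MYOCD, with no count, was not tested. The fourth EGR gene, EGR4, had 13.4 ± 2.31 CPM in knockout and 2.64 ± 0.601 CPM in wild-type libraries, a log2 fold change of 2.35 (SE 0.18, adjusted p = 4.6e-09, edgeR). NAB2, a corepressor that EGR factors induce and that restrains them, fell by 0.23 (adjusted p = 0.00442). The ternary complex factors that join SRF went in different directions, ELK4 rising by 0.22 (adjusted p = 0.00654) and ELK3 falling by 0.20 (adjusted p = 0.00851), and ELK1, named after its value was seen, was at a log2 fold change of 0.06 (adjusted p = 0.466). Without knockout replicate 2 the list had 2 genes higher and 1 lower, and without knockout replicate 3 it had 2 higher.

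The RAS-RAF-MEK-ERK cascade, which drives the ternary complex factors, had 5 of 20 genes higher and 2 lower, with a median of 0.06, and its 25% higher is near the 20.5% of all genes tested (20.7% lower). That count of 5 was 2 without knockout replicate 1 or 3 or wild-type replicate 2. BRAF averaged 53.5 ± 3.43 CPM in knockout and 38.3 ± 0.817 CPM in wild-type libraries (adjusted p = 2.23e-05, edgeR), and the scaffold gene KSR1 17.2 ± 0.881 and 10.3 ± 1.09 CPM. MAPK3, which encodes ERK1, and RPS6KA1, a kinase below ERK, fell by 0.47 and 0.46. Genes induced by ERK, among them its feedback inhibitors, were 4 higher and 8 lower of 16, with a median of -0.13, beside 20.5% higher and 20.7% lower over all genes tested. The receptor gene EPHA2 and the nuclear ERK phosphatase DUSP5 rose by 1.05 and 0.94, and the ETS factors ETV4 and ETV1 fell by 0.76 and 0.81. Other feedback inhibitors, named after their values were seen, mostly went the other way from DUSP5. DUSP6, SPRY1, SPRY2 and DUSP4 were called lower, with log2 fold changes of -0.49, -0.59, -0.17 and -0.15. SPRED2 was called higher (0.19), and SPRY4, SPRED1 and SPRED3 were not called. Transcript levels of a kinase do not measure its activity.

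CREB activators and coactivators had 4 of 10 genes higher and 1 lower (20.5% and 20.7% of all genes tested), with a median of 0.14, and the lower gene was not called without knockout replicate 1 or wild-type replicate 2 or 3. The acetyltransferase genes CREBBP and EP300 rose by 0.41 and 0.40, and the CREB coactivator genes CRTC3 and CRTC2 by 0.32 and 0.22. Actin and contractile genes that SRF controls with MRTF had 6 of 14 tested genes higher (42.9%) and 1 lower, with a median of 0.07. Over all genes tested the shares were 20.5% higher and 20.7% lower. CNN1 was not tested for low counts. Without knockout replicate 2 the list had 2 lower genes, and without wild-type replicate 1 it had 3. ACTA2, smooth muscle actin, averaged 38.9 ± 1.97 CPM in knockout and 15.7 ± 1.33 CPM in wild-type libraries, and TPM1, FHL2 and FLNA rose by 0.78, 0.64 and 0.34. Cytoplasmic actin, ACTB, named after its value was seen, was at a log2 fold change of 0.02 (adjusted p = 0.865, edgeR).

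**Figure D5:**
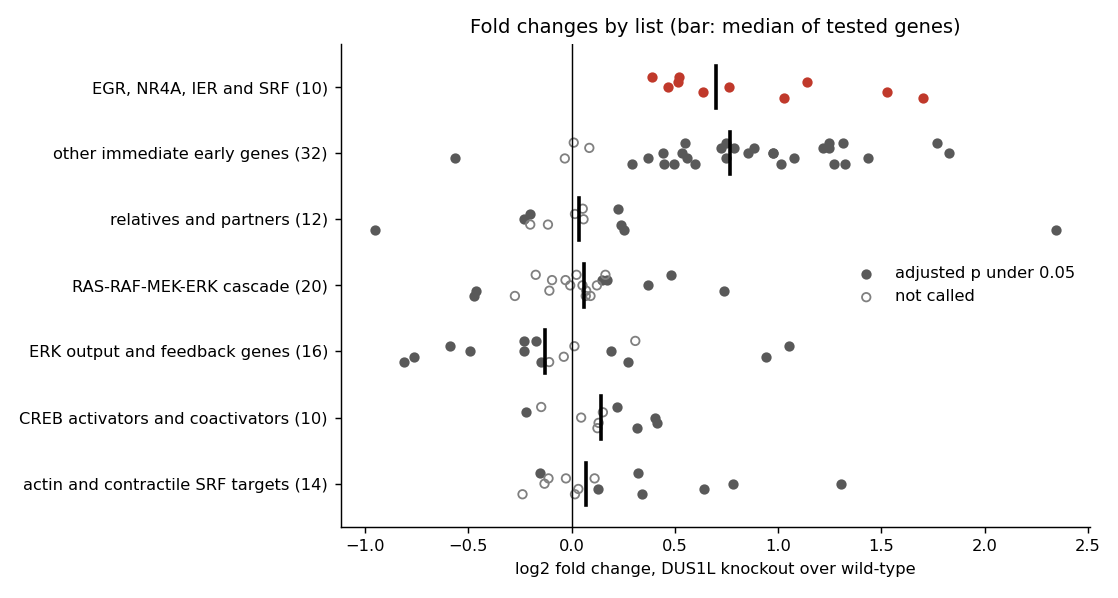
Log2 fold change of DUS1L knockout over wild-type (horizontal axis) for the 10 genes (top, red) and the 6 related lists, with one point per tested gene, filled where the adjusted p was under 0.05, and a bar at the median. Every point of the top row is filled and right of 0, and the ERK output list has filled points on both sides.

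The genes most like the 10 in pattern were found by correlating log2 CPM over the 6 libraries with the mean standardised profile of the 10. Among 11013 tested protein-coding genes of 5 CPM or more the 5 highest were HDAC9, NFKB1, CXCL1, INHBA and SLFN5, with Pearson r from 0.9988 to 0.9994. These points share the 2 groups, so r reflects mostly the difference between them. NFKB1, an NF-kB subunit, averaged 231 ± 20.7 CPM in knockout and 117 ± 13.4 CPM in wild-type libraries (SD, n = 3 each). CXCL1, a chemokine with closely related copies that can share its reads, averaged 538 ± 83.3 and 108 ± 23.5 CPM. Of the 10 genes EGR2 followed the mean profile most closely (r = 0.997) and NR4A2 least (r = 0.754). The mean profile contains each of the 10 genes, which raises their r.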

How the data were processed

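RNA-seq of 3 DUS1L knockout and 3 wild-type A375 libraries was analysed. Per the labels' protocols, TRIzol RNA was sequenced as paired ends on a BGISEQ-500 instrument. The authors deposited estimated counts per gene, of which between 23.6% and 24.8% of the nonzero values in a library were fractional. The build was GRCh38, per the submitters' processing notes, and the aligner, counting tool, strand setting and annotation are not given in the sources used here. Of 63086 identifiers, 62541 (99.1%) matched GENCODE release 44, which gave symbols, coordinates and lengths.

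Estimated counts were rounded. Genes were kept by filterByExpr (minimum count 10), scaled by TMM and compared with edgeR 4.0.16 in R 4.3.3 (robust quasi-likelihood, group as the only term, Benjamini-Hochberg adjustment over 16046 genes, threshold 0.05, two-sided). SE values derive from the fold change and its F statistic. A count of 3 corresponds to between 0.159 and 0.176 CPM, which covers counting error only. No 2 libraries matched within sampling noise (chi-square per degree of freedom at least 3.721). The fit was tested on simulated data, in a single draw with far fewer changed genes than were called here. There the share of false calls came out above the nominal level of the adjustment. The share in these data is not known and may differ. Calls with an adjusted p near 0.05, such as NR4A1 and NR4A2, are therefore less certain than that p states. The same limit holds for the counts of called genes, over all genes and in the lists. DESeq2 1.42.0 and limma 3.58.1 were alternatives. All 10 genes were named. From each of 6 lists, up to 4 called genes with the smallest p were named. The genes and lists were chosen with earlier results of these data known.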

Additional observations from a re-analysis of the deposited data

How the results depend on the processing

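The direction of all 10 genes was the same in all 14 alternatives run on the fit. Of the 140 repeats, 13 lost a call, all of them NR4A1, NR4A2 or IER3, and none reversed. The count of genes called higher was 10 with size factors from RLE, library size alone, no count filter, limma-voom and no robust moderation, 9 with DESeq2 and with the length and GC correction, and between 7 and 9 when single libraries were left out. EGR1, EGR2, NR4A3 and IER5 had at most an adjusted p of 1.32e-05 in any alternative. With the replicate block (replicate number as a term) the count was 8, NR4A1 (adjusted p = 0.0925) and NR4A2 (adjusted p = 0.0633) not being called. Correlations of same-numbered deviations were -0.041, -0.017 and 0.019, and 1 of 3 knockout libraries correlated best with its own number. These values show no pairing by number. With 3 libraries per group, whether the numbers mark a shared batch cannot be told from them.

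Past 1.5-fold, all genes numbered 371 higher and 204 lower, against 230 and 110 with DESeq2 and 226 and 119 with limma-voom, by each program's own test. Library size alone gave 0 lower genes in the CREB list and 0 in the actin list, against 1 in each. Without the count filter 3 cascade genes were higher, against 5, and the length and GC correction gave 2 lower actin genes. With single libraries left out, higher genes numbered 2 to 4 in the cascade and 2 to 3 among relatives and partners, and lower genes 1 to 4 among relatives and partners, 0 to 1 in the CREB list and 1 to 3 in the actin list. The cause was not tested. In the 150 bases before the start alone, an EGR site was found in 1 gene (against 3), a GC box in 3 (against 5) and a TATA box in 0 (against 1). With the longest transcript as length, 8 of 10 genes kept their rank by TPM in wild-type cells and 10 in knockout cells. Leaving out libraries for the within-family ratios was chosen after seeing the data. At this depth a gene with under 3 counts in a library could not be told from 0.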
